A study of Apostichopus japonicus with 9 samples.

Results

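The 62 small RNA entries that were listed above 0 in all 9 libraries of the sea cucumber respiratory tree were followed over 3 levels of dissolved oxygen. They were taken from 475 entries in all, and 61 of the 62 carry the name of a known miRNA, written Aja-miR, while 1 is a predicted miRNA. Each member was asked whether its level followed oxygen in steps, moved only at the lowest oxygen, or peaked or dipped at the middle one. The members held 99.8 to 100% of the summed value of each library, and their mean values ran from 14.3 to 1437790.

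miRNAs are short RNAs cut from hairpin precursors. Loaded into an Argonaute protein, they pair with messenger RNAs, chiefly through bases 2 to 8 from the 5′ end, called the seed, and lower the output of those messages. Entries with the same seed can therefore share targets, and a form that lacks bases at its 5′ end has another seed. The respiratory tree is the branched tube through which a sea cucumber pumps water to take up oxygen, and its wall holds epithelium, muscle and nerve fibres.

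The animals were *Apostichopus japonicus* kept for 3 days in water with 2 mg/L (DO2, severe hypoxia), 4 mg/L (DO4, mild hypoxia) or 8 mg/L (DO8, the normoxic control) of dissolved oxygen, the lower levels being reached with nitrogen. There were 3 libraries per group, each from respiratory tree RNA of 3 animals mixed into 1 pool, and the labels call the pools biological replicates. A p-value here measures the spread between such pools. Fewer cells of a type and less RNA per cell cannot be told apart in pooled tissue, and the labels do not tie pools to tanks.

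The DO2 libraries stood apart as a whole. In units of 1000, their summed values were 2029 to 2119, against 3270 to 3985 at 4 mg/L and 2719 to 3420 at 8 mg/L. The miRNA reads worked out from the steps of the values, again in units of 1000, were 336, 629 and 1741 in DO2 libraries 1, 2 and 3 and 4682 to 6025 in the other 6. One read was worth 6.18, 3.23 and 1.22 units in those DO2 libraries and 0.556 to 0.682 units elsewhere. DO2 differed from the other 6 libraries in these reads and in summed value with an exact permutation p of 0.0119. This is the smallest p that 3 of 9 libraries allow. These are reads of the listed entries, not clean reads. By the paper's counts, clean reads differed far less between libraries. In DO2 a smaller part of them was miRNA and a larger part rRNA. The number of miRNA reads, this RNA make-up and the lowest oxygen cannot be told apart. Of the 62 members, 10 had under 10 reads in at least 1 library. The lowest value inside the rule was 2.39 for Aja-miR-6236-3p, and just outside it lay 7 entries listed in 8 libraries, among them Aja-let-7a, Aja-miR-96-5p and Aja-miR-2002a-3p, which were at 0 in DO2 library 1.

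The mature sequences that carry the results are given as deposited, 5′ to 3′, with T for U and the seed in capitals. The first set holds the miRNAs that were lower in DO2, and their seeds all differ.
Aja-miR-125: tCCCTGAGaccctaacttgtga
Aja-miR-10: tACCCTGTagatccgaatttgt
Aja-miR-71-5p: tGAAAGACatgggtagtgaga
Aja-miR-200-3p: tAATACTGtctggtgatgatg
Aja-miR-2013-3p: tGCAGCATgatgtagtggtgtt

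The second set holds miRNAs of 21 or 22 nt that were higher in DO2, followed by Aja-miR-1a-3p, the 1 member with a separated graded pattern on the deposited scale.
Aja-miR-2008: tCAGCCTCgctgtcaatacga
Aja-miR-137: tTATTGCTtgagaatacacgta
Aja-miR-153-3p: tTGCATAGtcacaaaagtgatt
Aja-miR-1a-3p: tGGAATGTaaagaagtatgtgt

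The third set shares the seed ATTGCAC of the miR-92 family, which 7 of its 8 members and Aja-miR-313a carried, and is shown because its members had different shapes over oxygen. The pair of let-7 entries, also with 1 seed between them, follows.
Aja-miR-92a: tATTGCACttgtcccggcctat
Aja-miR-92-3p: tATTGCACttgtcccggccggt
Aja-miR-92c-3p: tATTGCACtcgtcccggcctat
Aja-miR-92b-1: tATTGCACttgacccggcctgc
Aja-miR-92d: tATTGCACttttcctggcct
Aja-let-7-5p: tGAGGTAGtaggttatatagtt
Aja-let-7a-5p: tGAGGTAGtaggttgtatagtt

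The last set holds short entries whose bases all lie within a longer member, with Aja-miR-133-3p, the longer form of Aja-miR-133, beside them. Aja-miR-1, Aja-miR-133 and Aja-miR-200 end early and keep the seed, whereas Aja-miR-125-5p starts 3 bases into Aja-miR-125 and has another seed.
Aja-miR-1: tGGAATGTaaagaagtat
Aja-miR-133: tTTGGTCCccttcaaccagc
Aja-miR-133-3p: tTTGGTCCccttcaaccagccgt
Aja-miR-200: tAATACTGtctggtgatg
Aja-miR-125-5p: cTGAGACCctaacttgtga

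The members called for a difference among oxygen levels were described best by a move at 2 mg/L, and none was called between 4 and 8 mg/L. A difference among the 3 levels passed an adjusted p of 0.05 in 15 of 62 members (24.2%; limma on log2 of the value plus 1, adjusted over 90 tested entries, of which 26.7% passed, a share close to that of the members), and for all 15 the pattern that described the 9 libraries best was DO2 apart from DO4 and DO8 at a common level. These 90 entries, called the background here, include the 62 members and their calls. Any entry listed in every library of 1 group enters the background, also one listed in DO2 alone, which is high in DO2 by that choice. In the test of DO2 against the mean of DO4 and DO8, 14 members were higher in DO2 (background 25.6%) and 6 were lower (background 8.89%). The balance of higher and lower calls, among the members and in the background, depends on these rules of entry. The straight trend over oxygen, taken per halving of oxygen so that DO4 lies midway on a log scale, called 12 members higher at low oxygen (background 23.3%) and 6 lower (background 7.78%), all of them also called in the DO2 test. Between DO4 and DO8 no member was called (background 0%). That comparison had a smallest adjusted p of 0.802 in limma and 0 members at an unadjusted p under 0.05, and the intervals of DO4 minus DO8 reached a median of 0.83 on the log2 scale to either side, so that changes of that size or smaller could be missed.

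**Figure D1:**
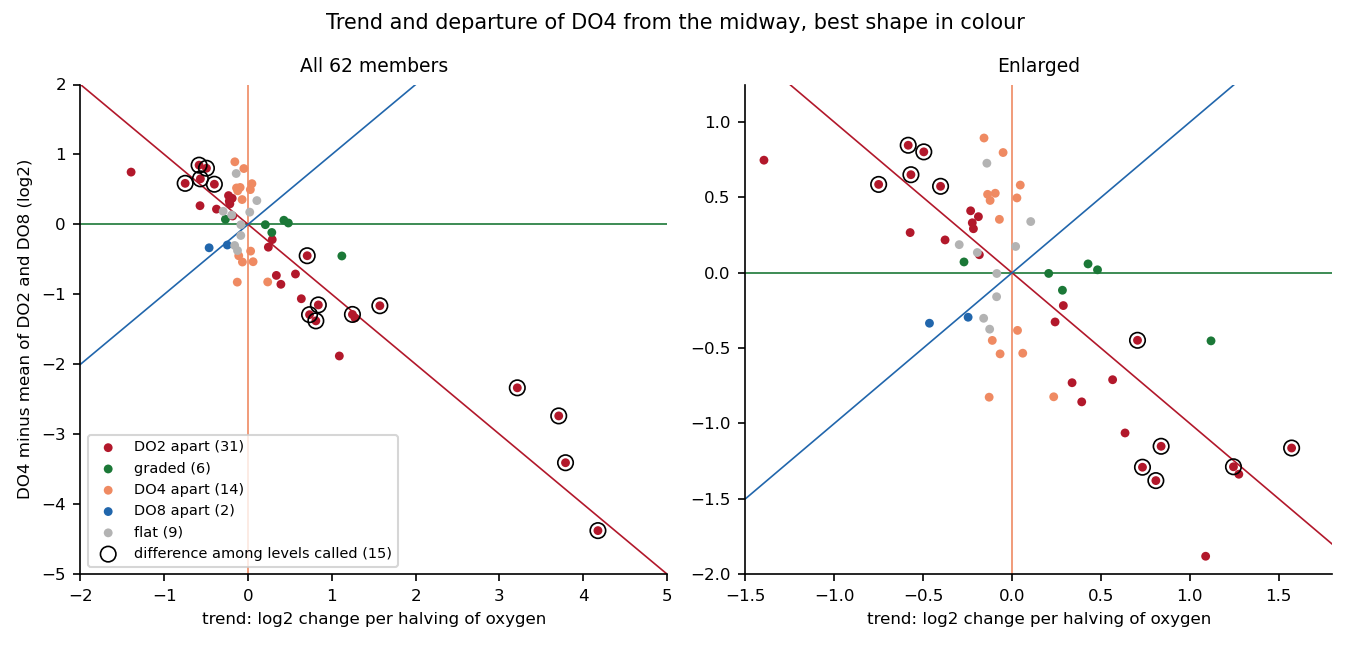
Trend (horizontal, log2 change per halving of oxygen) against the departure of DO4 from the mean of DO2 and DO8 (vertical, log2) for the 62 members, all in the left panel and enlarged in the right. A stepwise response lies on the green line, a shift at 2 mg/L on the red, a change at 4 mg/L only on the orange and a change at 8 mg/L only on the blue; the 15 ringed members, called for any difference among the levels, lie along the red line.

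The best pattern was DO2 apart for 31 members (48.9% of all tested entries), DO4 apart for 14 (16.7%), graded for 6 (13.3%), DO8 apart for 2 (3.33%) and flat for 9 (17.8%). These are descriptions by the Akaike criterion with no test. The next pattern was at least 2 units worse for 21 of the 31 DO2-apart members (34.4% of tested entries), 8 of the 14 DO4-apart members (8.89%), 1 of the 6 graded members (1.11%) and neither of the DO8-apart members. The 31 DO2-apart members made up 69.0% of the mean value of all members, the 14 DO4-apart members 24.4% and the 6 graded members 4.95%. By mean value alone, DO4 lay between DO2 and DO8 in 21 members, above both in 21 and below both in 20. No member had its 9 libraries in the full order of oxygen without overlap between groups (background 0%), whereas the DO2 libraries lay above all others in 12 members (background 23.3%) and below all others in 6 (background 7.78%). Libraries of 1 group varied least at 8 mg/L, where the median SD over the members was 0.30 on the log2 scale, against 0.40 at 2 mg/L and 0.49 at 4 mg/L, and DO4 was the widest group in 34 members.

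Of the 6 let-7 and Hox-linked members (the miR-10 and miR-125 families, which in many animals sit near Hox or let-7 genes and act in patterning and developmental timing), 2 fell in DO2 (8.89% of all tested entries fell) and the other 4 were not called, with shifts from −0.68 to 1.20 on the log2 scale. Aja-miR-125 was at 111280, 116240 and 169172 at 2 mg/L, 389714, 273134 and 403007 at 4 mg/L, and 306856, 278240 and 291164 at 8 mg/L. Every DO2 library lay below every other, while DO4 and DO8 overlapped. DO2 was lower than the mean of the others by 1.30 ± 0.20 on the log2 scale (SE, n = 3 libraries a group; limma adjusted p = 0.000737). Its DO4 level was 0.85 ± 0.20 above the mean of DO2 and DO8 (limma adjusted p = 0.0205). It was the 1 member called above midway, and the background of 1.11% is this call itself. DO4 minus DO8 was 0.26 with a 95% interval from −0.26 to 0.79. A shift at 2 mg/L alone also puts DO4 off the midway, and Aja-miR-125 was described best by DO2 apart, not by DO4 apart, with the next pattern 11.3 units worse. The call above midway was lost without DO2 library 1 or 2, DO4 library 1 or 3, or DO8 library 2, with equal totals (with or without miR-6236 and miR-6240), with clean reads, and with limma's variance moderated without a trend.

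Aja-miR-10, the most abundant member, was at 871306, 1021144 and 834008 at 2 mg/L, 2038474, 1632316 and 1698579 at 4 mg/L, and 1950688, 1704707 and 1188885 at 8 mg/L. The DO2 libraries were again all below the rest. The shift was −0.89 ± 0.20 on the log2 scale (limma adjusted p = 0.00618), and DO4 stood 0.17 above DO8 (95% interval −0.35 to 0.69). It made up 43.9 ± 5.72% of the summed library value at 2 mg/L, 50.5 ± 0.62% at 4 mg/L and 52.3 ± 7.43% at 8 mg/L (SD), a difference between DO2 and the rest that an exact permutation test did not separate from the spread (p = 0.0833).

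Aja-miR-71-5p, of a family found in invertebrates and absent from vertebrates, was at 43486, 63098 and 69684 at 2 mg/L, 181244, 162651 and 96700 at 4 mg/L, and 118225, 101207 and 126039 at 8 mg/L. It was lower in DO2 by 1.15 ± 0.24 on the log2 scale (limma adjusted p = 0.00403), with the DO2 libraries below the other 6. The entry Aja-miR-71 (19 nt), which has the same seed, ran from 1224 to 7059 and was described best by no change.

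Aja-miR-200-3p belongs to a family that in vertebrates marks epithelia. Its values were 34581, 33253 and 39352 at 2 mg/L, 55859, 122657 and 106580 at 4 mg/L, and 78964, 106815 and 121729 at 8 mg/L. All DO2 libraries lay lowest, and DO4 library 1 lay between them and the remaining libraries. The shift was −1.42 ± 0.26 on the log2 scale (limma adjusted p = 0.00169). Of the 3 epithelial, ciliary and sensory members it was the 1 called; Aja-miR-34, of a family used by ciliated cells in vertebrates, had a shift of −0.53 and the 18 nt Aja-miR-200 one of 1.02, neither called.

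Of the 12 members in families first described in echinoderms or hemichordates (miR-2001 to miR-2013, with no role given here), 2 rose in DO2 and 1 fell, against 25.6% and 8.89% of all tested entries. Aja-miR-2013-3p was at 599.9, 681 and 538 at 2 mg/L, 1404, 1730 and 1147 at 4 mg/L, and 1365, 1253 and 1374 at 8 mg/L. DO2 was below all others, and the DO8 libraries lay within the range of DO4. The shift was −1.18 ± 0.22 on the log2 scale (limma adjusted p = 0.00169), and DO4 minus DO8 was 0.08 (95% interval −0.48 to 0.65).

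Aja-miR-2008 went the other way. It stood at 3463, 2905 and 2770 at 2 mg/L, 419, 884 and 1195 at 4 mg/L, and 883, 1021 and 943 at 8 mg/L. The DO2 libraries were all above the rest, and DO4 library 1 was lowest. The shift was 1.83 ± 0.31 on the log2 scale (limma adjusted p = 0.00106). Its DO4 level lay 1.15 below the mean of DO2 and DO8 (adjusted p = 0.0379), a call lost when any 1 of 7 libraries was left out, the exceptions being DO2 library 3 and DO4 library 3. The other arm of its hairpin by name, Aja-miR-2008-5p, ran from 55.7 to 124 at 2 mg/L, 101 to 303 at 4 mg/L and 152 to 243 at 8 mg/L, and was not called.

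Aja-miR-2002-3p, a 19 nt entry, was at 2400, 1924 and 481 at 2 mg/L, 61.5, 649 and 113 at 4 mg/L, and 349, 251 and 271 at 8 mg/L. The groups overlapped, since DO4 library 2 exceeded DO2 library 3. The shift of 2.57 ± 0.73 on the log2 scale passed (limma adjusted p = 0.0205), and it was lost without DO2 library 1 (adjusted p = 0.096) or DO2 library 2 (adjusted p = 0.115).

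Of 7 members of families with known roles in neurons, 2 rose in DO2 and none fell, against 25.6% and 8.89% of all tested entries. Aja-miR-137, which in vertebrates acts in neuron maturation, was at 742, 1130 and 1733 at 2 mg/L, 487, 393 and 686 at 4 mg/L, and 388, 411 and 481 at 8 mg/L. Every DO2 library lay above the rest. The shift was 1.28 ± 0.32 on the log2 scale (limma adjusted p = 0.00974). Aja-miR-153-3p, known in vertebrates for its place in synaptic release, was at 124, 109.7 and 299 at 2 mg/L, 41.0, 31.4 and 44.3 at 4 mg/L, and 56.8, 60.0 and 54.6 at 8 mg/L. This was the 1 member in which DO4 lay below both other groups with no overlap (background 2.22%), and DO2 lay above both. The shift of DO2 was 1.75 ± 0.43 on the log2 scale (limma adjusted p = 0.00931), and DO4 lay 1.29 below the midway (adjusted p = 0.069, not called). Its trend of 0.73 on the log2 scale per halving of oxygen (adjusted p = 0.0453) was lost with a replicate block (adjusted p = 0.059). Aja-miR-124 and Aja-miR-9-5p, of the families most tied to neurons, had shifts of −0.05 and −0.67 and were not called.

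**Figure D2:**
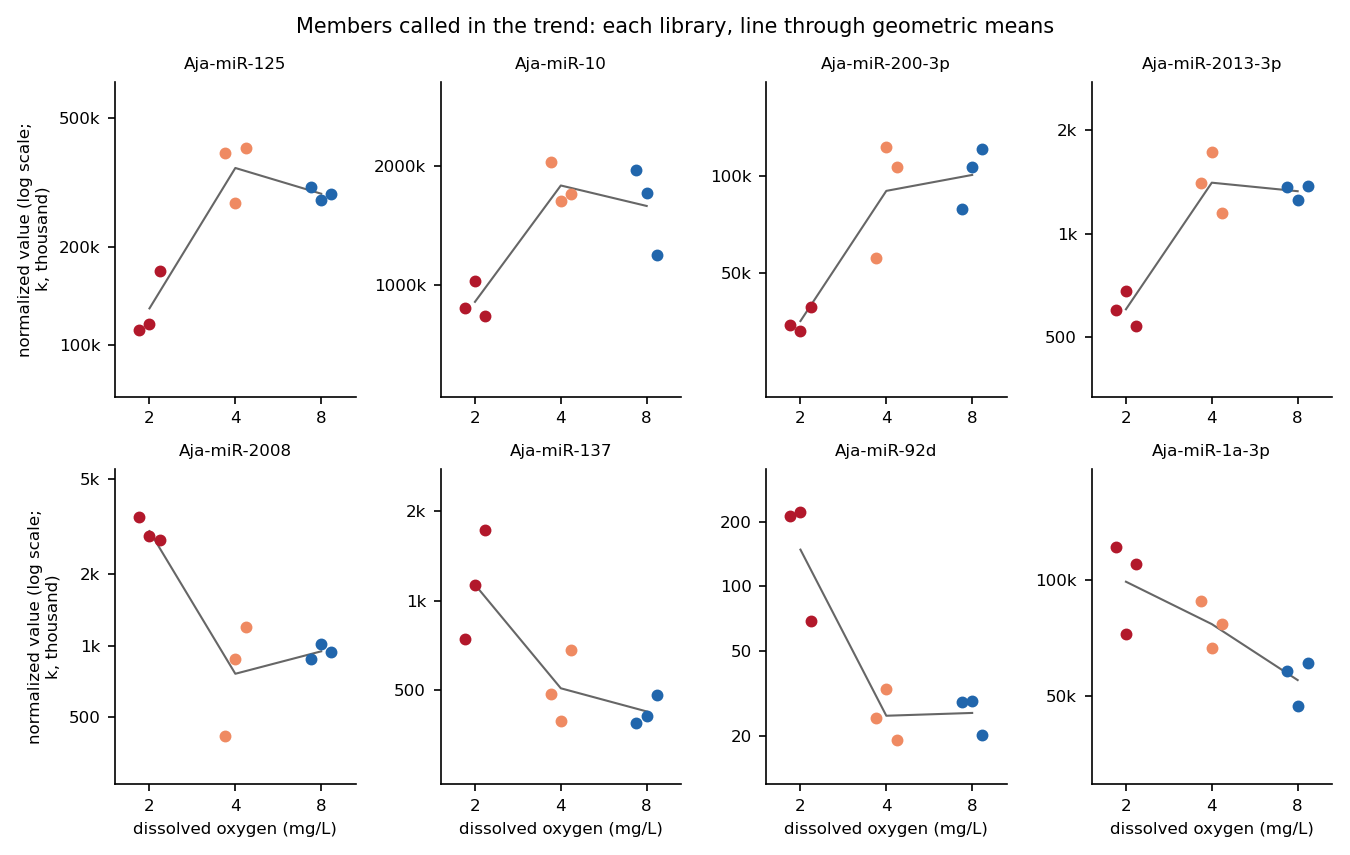
Values of 8 members called in the trend in each of the 9 libraries against dissolved oxygen (log scales, k for units of 1000; points are libraries, and the line joins the geometric means of the 3 libraries of a group). In 7 of the 8 panels the 3 DO2 libraries lie on 1 side of all others; in Aja-miR-1a-3p the groups step down from 2 to 8 mg/L with overlap.

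The position of DO4 on the way from DO8 to DO2 was worked out for the 18 members called in the trend, where 0 is the DO8 level, 1 the DO2 level, 0.5 a straight line in the log of oxygen and 0.667 a straight line in mg/L. Their trend calls rested in part on single libraries: 8 of the 18, among them Aja-miR-10, Aja-miR-71-5p, Aja-miR-137 and Aja-miR-153-3p, were lost without 1 library or another, and without DO8 library 1 the calls were 7 higher and 3 lower. The median position was 0.017, and 17 of the 18 lay between −0.38 and 0.30. All 18 intervals of 95% held 0. Of these, 12 ended below 0.5, so that a straight line in the log of oxygen lay outside them, and 14 ended below 0.667, so that a straight line in mg/L did. The 12 include the entries named after miR-6236 and miR-6240. These intervals hold for the deposited scale only, whose library factors have an unknown source. Among the tightest were Aja-miR-6240-5p at 0.050 (−0.17 to 0.23) and Aja-miR-6240 at −0.024 (−0.35 to 0.22), followed among ordinary miRNAs by Aja-miR-1 at 0.13 (−0.37 to 0.48), Aja-miR-200-3p at 0.11 (−0.48 to 0.50) and Aja-miR-125 at −0.22 (−1.0 to 0.19). The widest belonged to Aja-miR-153-3p, from −3.30 to 0.29. The other 6 intervals held both 0 and 0.5, which does not separate these shapes, among them those of Aja-miR-137, Aja-miR-278-3p and Aja-miR-1a-3p.

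**Figure D3:**
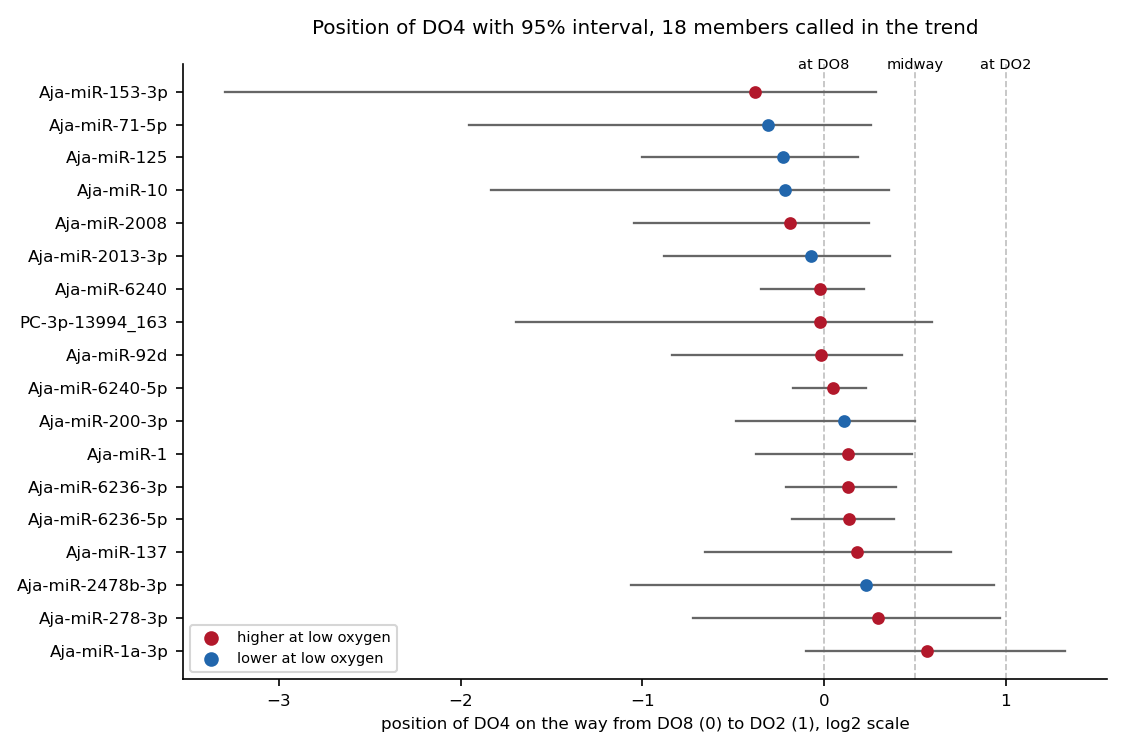
Position of the DO4 mean between the DO8 mean (0) and the DO2 mean (1) on the log2 scale for the 18 members called in the trend (points; red higher and blue lower at low oxygen; bars are 95% Fieller intervals). The points gather around 0, with Aja-miR-1a-3p at 0.57 the farthest towards DO2.

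On the deposited scale Aja-miR-1a-3p was the 1 member for which the graded pattern was separated from the others, by 3.03 units. With equal totals or clean reads it was described best by DO2 apart instead, and with median-ratio factors, or without DO2 library 1, DO2 library 3 or DO4 library 2, the graded pattern came first by less than 2 units. miR-1 is the main miRNA of muscle in animals from flies to mammals. Its values were 122403, 72310 and 110416 at 2 mg/L, 88375, 66733 and 77038 at 4 mg/L, and 58034, 46931 and 60661 at 8 mg/L. The DO8 libraries were below all others, the 1 member where this was so (background 1.11%, which is this member itself), while DO2 library 2 lay within the DO4 range. The level rose by 0.43 on the log2 scale per halving of oxygen (limma adjusted p = 0.0221, but −0.68 with clean reads as the library size), DO4 lay 0.06 ± 0.21 from the midway, and its position was 0.57 (95% interval −0.10 to 1.33), which holds both 0 and 1. The trend missed the threshold without DO2 library 1 or 3 or DO8 library 1 or 2 (adjusted p from 0.059 to 0.098).

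The other graded members were Aja-miR-278-3p, Aja-miR-7-5p, Aja-miR-2011-3p, Aja-miR-29b-3p and Aja-miR-9-3p, each within 2 units of another pattern. Aja-miR-278-3p, which in flies acts in energy balance, was at 49.5, 74.2 and 152 at 2 mg/L, 30.4, 55.9 and 11.4 at 4 mg/L, and 22.1, 13.3 and 15.7 at 8 mg/L. DO4 library 2 exceeded DO2 library 1, and DO4 spread over both neighbours. It rose by 1.12 on the log2 scale per halving of oxygen (limma adjusted p = 0.0306), a call lost without DO2 library 2 or 3 or any 1 of the DO8 libraries (adjusted p from 0.066 to 0.098) and with a replicate block (adjusted p = 0.059). The other 4 were not called in the trend, with slopes of 0.48 for Aja-miR-7-5p, −0.27 for Aja-miR-2011-3p, 0.21 for Aja-miR-29b-3p and 0.28 for Aja-miR-9-3p per halving of oxygen on the log2 scale.

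A peak or dip at 4 mg/L was the best pattern for 14 members, 8 with DO4 high and 6 with DO4 low, but none of the 14 was called in the contrast of DO4 with the mean of the outer groups. The 3 members called below midway in that contrast (background 12.2%) were Aja-miR-2008, Aja-miR-6240 and Aja-miR-6240-5p, each described best by DO2 apart. The strongest peak was that of Aja-let-7a-5p, of the family that times development in worms and flies. It was at 74.2, 49.5 and 70.2 at 2 mg/L, 176, 110.1 and 122 at 4 mg/L, and 90.9, 80.3 and 68.7 at 8 mg/L. All DO4 libraries lay above all others, the 1 member where this was so (background 2.22%). DO4 was 0.89 ± 0.36 above the midway on the log2 scale (limma adjusted p = 0.121, unadjusted p = 0.0321). Aja-let-7-5p, with the same seed and a far higher level, was at 294937, 199035 and 257592 at 2 mg/L, 485041, 452437 and 270960 at 4 mg/L, and 358506, 244514 and 305845 at 8 mg/L. Here DO4 library 3 fell among the DO8 libraries, and the contrast was 0.52 ± 0.24 (limma adjusted p = 0.178). Aja-let-7a-5p differs from Aja-let-7-5p in 1 base, and reads with mismatches could be divided between them by the authors' mapping. Aja-let-7a-5p had 12 and 15.3 reads in DO2 libraries 1 and 2.

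The miR-92 entries gave 4 of the other 6 peaks, the last being those of Aja-miR-2007-5p (0.53 ± 0.27 on the log2 scale) and Aja-miR-2012 (0.35 ± 0.23). miR-92 belongs to the conserved miR-25 group, which in vertebrates is linked to cell growth. Aja-miR-92a was at 180101, 171471 and 273186 at 2 mg/L, 399802, 195687 and 328904 at 4 mg/L, and 159098, 180079 and 243038 at 8 mg/L. DO4 libraries 1 and 3 were the highest of all 9, and library 2 lay within the other groups. The contrast was 0.58 ± 0.27 on the log2 scale for Aja-miR-92a, 0.50 ± 0.24 for Aja-miR-92-3p, 0.80 ± 0.51 for Aja-miR-92c-3p and 0.48 ± 0.34 for Aja-miR-92d-3p, none called, with adjusted p from 0.178 to 0.343 (limma). In all 4, DO4 library 2 was the lowest DO4 library. Aja-miR-92c-3p had 2.67 and 5.67 reads in DO2 libraries 1 and 2, the first being the fewest of any member in any library.

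Entries with the same seed were described by different shapes. Aja-miR-92d, with the same first 10 bases as Aja-miR-92a, was at 213, 221 and 68.8 at 2 mg/L, 24.1, 33.1 and 19.0 at 4 mg/L, and 28.7, 28.9 and 20.0 at 8 mg/L. The DO2 libraries were all above the other 6. Its shift was 2.51 ± 0.50 on the log2 scale (limma adjusted p = 0.00252), and DO4 minus DO8 was −0.04 (95% interval −1.32 to 1.24). Aja-miR-92b-1, also described best by DO2 apart but with DO2 lower, had a shift of −0.47, and Aja-miR-92a-1, described best by no change, one of −0.01, both uncalled. The entries are near in sequence, and reads with mismatches could be divided between them by the authors' mapping. No test compared the shapes with each other.

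Among the members with DO4 lowest, Aja-miR-375-3p, which in vertebrates is made by hormone-secreting cells, was at 29077, 27935 and 38233 at 2 mg/L, 9374, 17328 and 21207 at 4 mg/L, and 18282, 33278 and 19262 at 8 mg/L. DO4 lay below all DO2 libraries and overlapped DO8. The contrast was −0.82 ± 0.30 on the log2 scale (limma adjusted p = 0.0916). Aja-miR-2006-3p had −0.83 ± 0.41, Aja-miR-184-3p −0.54 ± 0.27 and Aja-miR-193-3p −0.53 ± 0.27, and the 3 had the same adjusted p of 0.201. In all 4 of these members DO4 library 1 was the lowest of the 9 libraries. Without that library the DO4-apart members went from 14 to 6, and those separated from other patterns from 8 to 1.

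**Figure D4:**
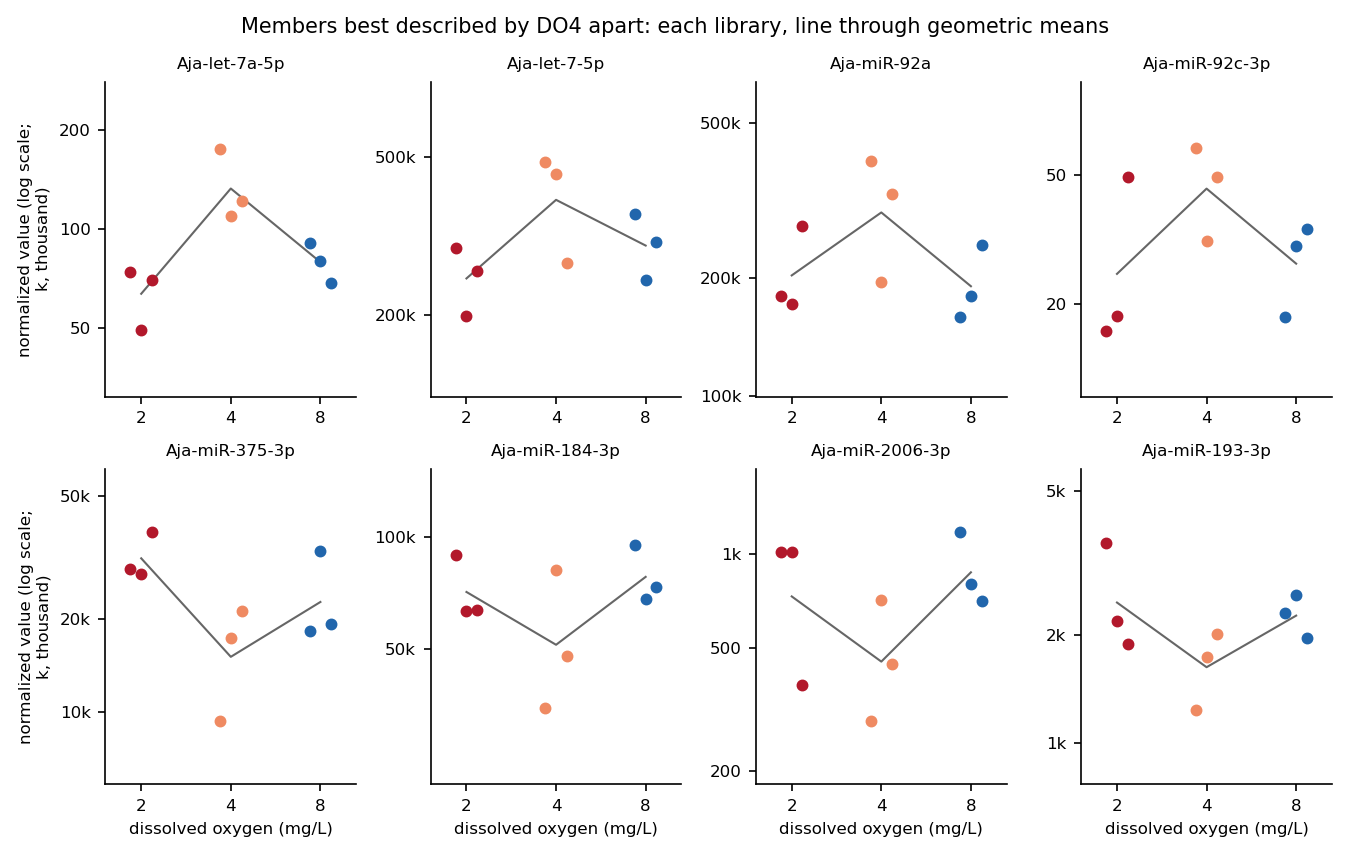
Values of 8 members described best by DO4 apart in each library against dissolved oxygen (log scales, k for units of 1000; points are libraries, and the line joins the geometric means of a group). DO4 is high in the upper row and low in the lower row, Aja-let-7a-5p is the 1 panel where DO4 does not overlap the other groups, and none of the 8 was called.

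Short entries held a part of the calls in DO2. Of 17 members under 21 nt, 6 (35.3%) were called higher in DO2, with a median shift of 1.02 on the log2 scale. Of 45 longer members, 8 (17.8%) were called higher, with a median of −0.21. Among all tested entries the share was 25.6%. The calls include the 4 entries named after miR-6236 and miR-6240, of which Aja-miR-6240 is short and the rest are longer. No test compared the classes. The short members called were Aja-miR-1, Aja-miR-133, Aja-miR-92d, Aja-miR-2002-3p, Aja-miR-6240 and the predicted PC-3p-13994_163. Aja-miR-1, which is Aja-miR-1a-3p less 4 bases at the 3′ end, was at 92.8, 58.1 and 47.5 at 2 mg/L, 7.28, 8.86 and 10.1 at 4 mg/L, and 4.78, 12.2 and 4.07 at 8 mg/L. DO2 lay above all other libraries, and its shift was 2.94 ± 0.50 on the log2 scale (limma adjusted p = 0.00101). The DO4 and DO8 values of Aja-miR-1 all lay below 12.4, the smallest value listed in DO2 library 1. It could thus be a member only by being higher there, which the p-value does not allow for. Aja-miR-133, which lacks the last 3 bases of Aja-miR-133-3p, an entry of the other main muscle miRNA family, was at 145, 118 and 40.8 at 2 mg/L, 13.6, 27.6 and 17.4 at 4 mg/L, and 22.4, 28.9 and 34.8 at 8 mg/L. Its DO2 libraries were the highest by a narrow margin in library 3, and the shift of 1.90 ± 0.52 (limma adjusted p = 0.0164) was lost without DO2 library 1 (adjusted p = 0.064) or DO2 library 2 (adjusted p = 0.069). Of the 4 muscle members, 3 were called higher in DO2, against 25.6% of all tested entries, and the fourth, Aja-miR-133-3p, had an uncalled shift of −0.56 on the log2 scale.

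A ratio of a short entry to the longer one that contains it does not depend on how libraries are scaled. The 9 such pairs were picked after the values were seen. Aja-miR-1 stood at 0.758, 0.803 and 0.430 per 1000 of Aja-miR-1a-3p at 2 mg/L, 0.0823, 0.133 and 0.131 at 4 mg/L, and 0.0824, 0.261 and 0.0670 at 8 mg/L. All DO2 libraries were above all others. The ratio was higher in DO2 than in the mean of DO4 and DO8 by 2.50 on the log2 scale, and by 2.52 for Aja-miR-125-5p to Aja-miR-125, 2.50 for Aja-miR-133 to Aja-miR-133-3p and 2.45 for Aja-miR-200 to Aja-miR-200-3p. Each of the 4 had an exact permutation p of 0.0119, the smallest possible, and 0.0268 adjusted over 9 pairs. Both forms of a pair had to be listed in DO2 library 1, where the smallest listed value was 12.4. A pair whose short form was low there could drop out, so the rule favoured pairs raised in DO2. The p-values do not allow for this. The contrast of DO4 with the outer groups had an adjusted exact p of 0.276 or more in all 9 pairs. The other 5 pairs, which included Aja-miR-124-3p to Aja-miR-124 and Aja-miR-252a-5p to Aja-miR-252a, were not called in DO2 (adjusted exact p from 0.107 to 0.917).

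**Figure D5:**
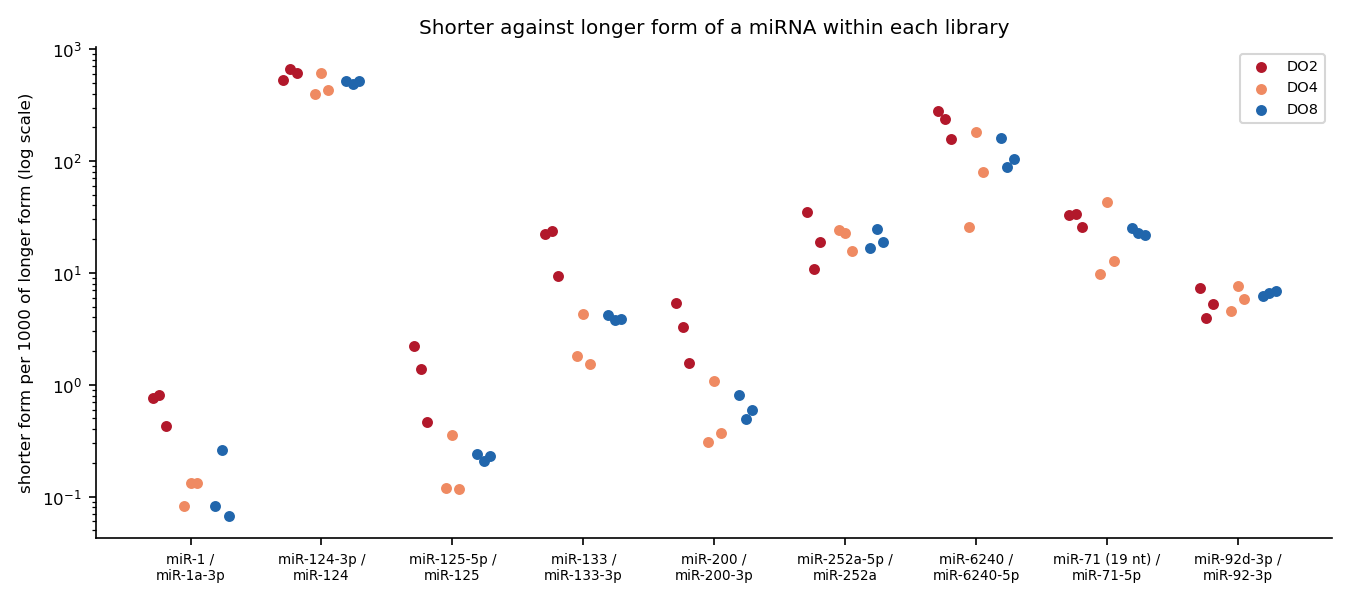
Shorter form per 1000 of the longer form that contains it, in each library (log scale; red DO2, orange DO4, blue DO8), for 9 pairs of members. In the pairs of miR-1, miR-125, miR-133 and miR-200 the 3 DO2 points lie above the other 6, and DO4 and DO8 overlap.

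Within DO2, the ratio was lowest in library 3, which had the most miRNA reads, in the pairs of miR-1, miR-125, miR-133 and miR-200 alike. For Aja-miR-133 to Aja-miR-133-3p it was 22.1, 23.9 and 9.28 per 1000 in DO2 libraries 1, 2 and 3. In the pairs of miR-125 and miR-200 the ratio was also highest in DO2 library 1, which had the fewest. For Aja-miR-125-5p to Aja-miR-125 it was 2.22, 1.39 and 0.460 per 1000 in the DO2 libraries, against 0.119, 0.354 and 0.118 at 4 mg/L and 0.240, 0.210 and 0.231 at 8 mg/L. Of the 62 members, 17 fell in the order of DO2 reads, 9 of them among the 14 called higher in DO2, and 11 rose in that order. The part of the number of miRNA reads, of RNA make-up or of RNA quality in these ratios was not tested.

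The largest shifts were those of the 4 entries named after miR-6236 and miR-6240, which in mouse coincide with ribosomal RNA. Aja-miR-6240-5p was at 32324, 16268 and 4314 at 2 mg/L, against 56.0 to 119 at 4 mg/L and 47.3 to 111 at 8 mg/L. The DO2 libraries differed among themselves by more than the other 6 did. The 4 shifts ran from 5.99 to 8.45 on the log2 scale, all called. Together these entries made up 3.27, 1.72 and 0.344% of the value of DO2 libraries 1, 2 and 3 and 0.0039 to 0.0121% of the others. This share fell across the DO2 libraries in the order in which their reads rose. Aja-miR-2478b-3p, of a name that in other species covers a piece of transfer RNA, moved the other way, at 37.1, 48.4 and 4.26 at 2 mg/L, 52.6, 259.8 and 60.1 at 4 mg/L, and 123, 136 and 193 at 8 mg/L (shift −2.47 ± 0.78 on the log2 scale, limma adjusted p = 0.032). That call was lost without DO2 library 3, DO4 library 2 or any 1 of the DO8 libraries (adjusted p from 0.055 to 0.097). The predicted PC-3p-13994_163 stood at 142, 48.4 and 37.7 at 2 mg/L, 6.61, 28.0 and 4.43 at 4 mg/L, and 11.4, 16.7 and 5.23 at 8 mg/L, with a shift of 2.58 ± 0.70 (limma adjusted p = 0.0164), lost without DO2 library 1 (adjusted p = 0.065). For PC-3p-13994_163, Aja-miR-6236-3p and Aja-miR-6240, some DO4 and DO8 values lay below 12.4, the smallest value listed in DO2 library 1. The rule thus favoured entries raised in DO2 here too.

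The remaining families held no called member or few. Of 10 members in other families shared by invertebrates, Aja-miR-278-3p was the 1 called. Aja-miR-210-3p, whose family is induced by low oxygen in vertebrates, was at 328, 1117 and 599 at 2 mg/L, 1293, 2116 and 489 at 4 mg/L, and 1163, 438 and 778 at 8 mg/L. All 3 groups overlapped, no change described it best, and the shift of −0.58 ± 0.54 on the log2 scale was not called (limma adjusted p = 0.411). None of the 62 members belonged to the vertebrate blood and liver families looked for (miR-122, miR-451, miR-144, miR-486, miR-192 and miR-194).

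The direction of a call depended on the scale of the libraries. The median place of DO4 changed little, but over different called members. With the values brought to equal totals the median shift of the members in DO2 went from −0.03 to 0.62 on the log2 scale, and 23 members were called higher and 1 lower. Of the 6 called lower on the deposited scale Aja-miR-125 was the 1 left, while Aja-miR-10 then stood at −0.23, Aja-miR-71-5p at −0.49, Aja-miR-200-3p at −0.76 and Aja-miR-2013-3p at −0.52 on the log2 scale. With the reads divided by the clean reads of each library it went to −2.0, and 4 were called higher, those named after miR-6236 and miR-6240, and 44 lower. Under that scale Aja-miR-2008, Aja-miR-137, Aja-miR-153-3p, Aja-miR-133, Aja-miR-278-3p and Aja-miR-1a-3p had shifts from −1.51 to −0.0038, all above the median of −2.0. The median position of DO4 for members called in the trend was −0.041 with equal totals and 0.060 with clean reads. A common shift of the members in DO2 alone, such as these scales bring, by itself draws the position towards 0. These medians therefore do not decide between the shapes. In all settings in which they were fitted, 5 of the 20 members called in the DO2 test kept the call, namely Aja-miR-125 and the 4 entries named after miR-6236 and miR-6240.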

How the data were processed

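Small RNA from 9 pools was sequenced, 3 pools at each oxygen level. The authors trimmed and filtered the reads, removed those that matched rRNA, tRNA, snRNA or snoRNA, and matched the rest to animal miRNAs. The submitters' processing notes name CASAVA 1.5; the genome build is not given in the sources used here. The deposited signal is reads per miRNA times 1 factor per library of unknown source. It is not on a per-million scale, since libraries sum to 2029412 or more, and whole reads could not be recovered for all values (64.3 to 81.1% whole within 0.02 read), so no count model was used.

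Values of 1 were added and log2 taken. limma 3.58.1 in R 4.3.3 fitted 1 mean per group over 90 entries, those above 0 in every library of 1 or more groups, with an intensity trend and Benjamini-Hochberg adjustment. Contrasts were the trend over log2 oxygen, DO4 against the mean of DO2 and DO8, DO2 against the mean of DO4 and DO8, and DO4 against DO8. Single library values and ratios were tested by two-sided exact permutation over 1680 arrangements of the 9 libraries. The 5 patterns (flat, graded, and each level apart) were compared by the Akaike criterion. Intervals for the DO4 position followed Fieller. Scripts were tested on simulated data. Python 3.11.15 was used for joins.

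Members named were those called in any contrast, the 5 most abundant, the 5 largest DO4 contrasts in each direction and the families of called members. Members and lists were chosen with earlier results of these data known. Alternatives covered the added value, filters, 4 library scales, mg/L scores, a replicate block, limma options and leaving out each library.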

Additional observations from a re-analysis of the deposited data

How the results depend on the processing

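The number of miRNA reads, the RNA make-up and the lowest oxygen cannot be told apart. The source of the library factors is unknown, and most changes of level in DO2 depended on the library scale. Of the 20 members called in the DO2 test, 5 kept the call in all settings in which they were fitted. They were Aja-miR-125 and the 4 entries named after miR-6236 and miR-6240. The paper's real-time PCR had this miR-125 higher in DO2, not lower. No setting called a member between DO4 and DO8, and the median position of DO4 stayed between −0.078 and 0.11 in all settings run. Under other library scales that position does not decide the shape, since a common shift in DO2 alone draws it towards 0. Replicate numbers did not pair the libraries (correlations of deviations from −0.33 to 0.42). With a replicate block 16 members were called for any difference, 10 higher and 6 lower in the trend, 3 off the midway and 13 higher and 6 lower in DO2; the block took the trend calls of Aja-miR-153-3p and Aja-miR-278-3p (adjusted p = 0.059 for each), the DO2 call of Aja-miR-278-3p (adjusted p = 0.058) and the DO4 contrast of Aja-miR-2008 (adjusted p = 0.063). The cause of the following changes was not tested. Scaled to equal totals, the calls were 23 for any difference (15 on the deposited scale), 20 higher and 1 lower in the trend (12 and 6), 13 off the midway, all below it (4, 1 of them above), 23 higher and 1 lower in DO2 (14 and 6), with 0 members DO8 apart (2). Leaving out miR-6236 and miR-6240 as well gave 0 lower in the trend, 9 off the midway, all below it, 1 lower in DO2 and 0 DO8 apart. Clean reads as library size gave 47, 4 and 45, 2 (both below), and 4 and 44 for the same calls, with 10 graded (6), 1 DO8 apart, 0 DO4 apart (14), 38 separated as DO2 apart (21) and 0 as DO4 apart (8). There the DO2 shift turned to −0.15 for Aja-miR-133, −0.81 for Aja-miR-137, −0.22 for Aja-miR-153-3p, −1.51 for Aja-miR-1a-3p, −0.29 for Aja-miR-2008 and −0.0038 for Aja-miR-278-3p, and the trend to −0.38 for Aja-miR-137, −0.27 for Aja-miR-153-3p, −0.68 for Aja-miR-1a-3p and −0.26 for Aja-miR-2008. A trend over mg/L gave 3 lower and 14 off its line, and no filter gave 7 off the midway. Without members under 21 nt, an alternative chosen after seeing the data like the floor at the smallest DO2 value, 7 were higher in DO2, 1 DO8 apart and 13 separated as DO2 apart.

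Leaving out 1 library at a time gave 12 to 19 members with any difference, 7 to 13 higher in the trend (7 without DO8 library 1 or 2) and 3 to 7 lower (3 without DO8 library 1), 1 to 10 off the midway (1 without DO2 library 2, 10 without DO2 library 3), 10 to 15 higher and 5 to 8 lower in DO2, 2 to 8 graded (2 without DO4 library 1), 27 to 39 DO2 apart, 1 to 4 DO8 apart, 6 to 15 DO4 apart (6 without DO4 library 1), 19 to 23 separated as DO2 apart and 1 to 11 as DO4 apart (1 without DO4 library 1, 3 without DO2 library 1). The 4 form ratios that differed in DO2 stayed between 2.02 and 3.16 on the log2 scale with each library left out, also an alternative chosen after seeing the data.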
